A study of Mus musculus with 15 samples.

Results

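Rhox5 and 7 genes of the DNA methylation machinery (Dnmt1, Dnmt3a, Dnmt3b, Uhrf1, Tet1, Tet2 and Tet3) were followed across bulk RNA-seq libraries of mouse bone marrow cells. They are 8 of the 17030 genes in the expression table, and all 8 had a row. The genes were listed by name after results of these libraries were known, Rhox5 being chosen by its measured level: it was among the genes with the highest levels in CAR macrophages and none in control-CAR macrophages. Its values are therefore given as a description with no test, and so are all comparisons of these genes with the CAR macrophages.

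The 15 libraries form 5 groups of 3, all from bone marrow and called primary cells in the labels. CAR macrophages express a chimeric antigen receptor, a synthetic receptor that joins an outer target-binding part to an inner signalling part, and control-CAR macrophages express a control form of it. Hoxb8 macrophages and bone marrow-derived macrophages (BMDM) are wild type and untreated, and the progenitor cells are wild type, untreated and not macrophages. The labels used here give no strain, age, receptor target or promoter, and do not tell whether replicates stand for separate cultures or animals. The p-values below thus measure the spread between these libraries, which may be technical.

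DNA methylation in mammals is carried on cytosines that precede guanines (CpG). Dnmt1 copies the mark onto new DNA strands during replication, and Uhrf1 binds hemimethylated DNA and brings Dnmt1 to it. Dnmt3a and Dnmt3b place the mark on unmethylated DNA, with Dnmt3l as a cofactor that has no catalytic activity of its own. The enzymes Tet1, Tet2 and Tet3 oxidise methylated cytosine, the first step of active removal, and loss of TET2 function is common in human clonal haematopoiesis. Rhox5, also called Pem, is an X-linked homeobox gene of the mouse reproductive homeobox cluster. It is expressed in testis, epididymis, ovary and placenta, and DNA methylation of its promoters accompanies its silence in other mouse tissues.

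The promoters of Rhox5, Uhrf1 and Dnmt3b are shown because the ratio of the highest to the lowest group mean was widest for these genes among the 8, Rhox5 being at 0 in 4 groups, and because they hold few, intermediate and many CpG sites. Each runs 5′ to 3′ on the plus strand in build GRCm38.p6, from 250 bases before to 50 bases after a RefSeq start, with each CpG in capitals. For Rhox5 and Uhrf1 that start is the start of the gene span given below. The Dnmt3b window is set on a start further into the gene, whose span begins at base 153649411. The windows lie at chrX:37754358-37754657 for Rhox5, chr17:56303087-56303386 for Uhrf1 and chr2:153649199-153649498 for Dnmt3b.
Rhox5: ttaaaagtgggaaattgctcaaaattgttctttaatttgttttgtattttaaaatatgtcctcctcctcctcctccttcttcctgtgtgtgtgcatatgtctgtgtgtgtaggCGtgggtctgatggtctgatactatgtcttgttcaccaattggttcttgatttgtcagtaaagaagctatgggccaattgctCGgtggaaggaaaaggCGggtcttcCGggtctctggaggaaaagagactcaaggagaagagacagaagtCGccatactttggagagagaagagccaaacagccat
Uhrf1: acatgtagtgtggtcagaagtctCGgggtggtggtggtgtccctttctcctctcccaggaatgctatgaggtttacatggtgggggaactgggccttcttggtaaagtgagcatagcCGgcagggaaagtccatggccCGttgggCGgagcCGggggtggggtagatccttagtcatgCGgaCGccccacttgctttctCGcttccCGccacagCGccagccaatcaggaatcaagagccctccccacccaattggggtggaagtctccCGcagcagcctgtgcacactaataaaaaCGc
Dnmt3b: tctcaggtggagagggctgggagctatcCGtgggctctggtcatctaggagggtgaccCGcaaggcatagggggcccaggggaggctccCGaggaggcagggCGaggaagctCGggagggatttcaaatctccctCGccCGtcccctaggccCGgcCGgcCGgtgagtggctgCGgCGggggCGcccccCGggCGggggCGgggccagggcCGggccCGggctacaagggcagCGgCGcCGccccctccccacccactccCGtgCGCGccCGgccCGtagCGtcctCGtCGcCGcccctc

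The Rhox5 window held 5 CpG sites at a GC content of 43.7%, and its observed CpG count was 0.363 of that its base composition would give. Of 27025 RefSeq promoter windows of the same length, with a median of 7 CpG sites, 38.3% held fewer. The Uhrf1 window held 12 CpG sites and the Dnmt3b window 30, more than 59.9% and 88.5% of the windows. The other members spanned a wide range, with 2 CpG sites for Dnmt1, 17 for Tet1, 22 for Tet3, 46 for Dnmt3a and 57 for Tet2. The Dnmt1 window is set on the outermost start of its gene, and those of Tet1, Tet2, Tet3 and Dnmt3a on starts inside the gene span. Windows at other starts of these genes were not counted. Which start the cells used was not measured, so a count may not describe the promoter in use. The RNA libraries do not measure methylation at any of these sites.

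**Figure D1:**
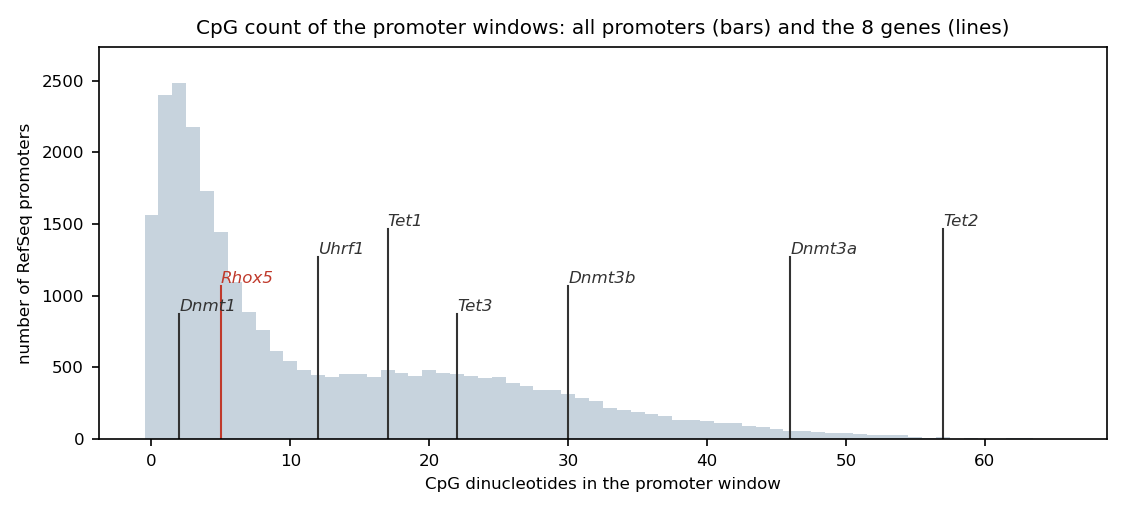
CpG sites per promoter window of 300 bases over 27025 RefSeq mouse promoters (bars, number of promoters on the vertical axis), with the 8 genes marked. Rhox5, at 5 CpG sites, lies below the median of 7, and Dnmt3a and Tet2, at 46 and 57, lie in the upper tail.

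Ets family factors are known to act on the distal promoter of Rhox5. Whether the RefSeq window is that promoter was not established here. The Rhox5 window was searched on both strands for GGAA, the core of Ets sites, for the longer Ets form CCGGAAG, and for GGCGGG, a GC box. GGAA was found 6 times, and 95.9% of all promoter windows held it at least 1 time. CCGGAAG was found 1 time, on the minus strand 34 bases before the start, overlapping 1 of the GGAA matches, and 9.12% of windows held it. GGCGGG was found 1 time, 41 bases before the start, and 35.5% of windows held it. The longer form was added to the search after the sequence had been seen, and a match is a description of letters only. A second annotation of the same assembly, GENCODE M21, starts Rhox5 50234 bases downstream of the RefSeq start, and counts per gene do not tell which start was used.

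Rhox5 (gene ID 18617; chromosome X, 37754608 to 37808878 in GRCm38.p6) was read in the CAR macrophages and in no other group. Its level was 102.16, 102.28 and 103.37 FPKM (fragments mapped to a gene, scaled by transcript length and library size) in the 3 CAR libraries, from estimated counts of 1023, 1053 and 1051. Its count was 0 in each of the 12 control-CAR, Hoxb8 macrophage, BMDM and progenitor libraries. The 3 CAR libraries thus stood close together, at 103 ± 0.667 FPKM (SD, n = 3), and apart from every other library. In bulk RNA, more cells that express a gene and more RNA per cell cannot be told apart. With a floor of 3 counts per library, which is what a count of 0 allows, and counts scaled by library size and the trimmed mean of M-values (TMM), Rhox5 was at least 272-fold higher in CAR macrophages than in control-CAR macrophages. By the same measure it was at least 267-fold higher than in Hoxb8 macrophages, at least 320-fold higher than in BMDM and at least 471-fold higher than in progenitor cells. These bounds cover counting error only.

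**Figure D2:**
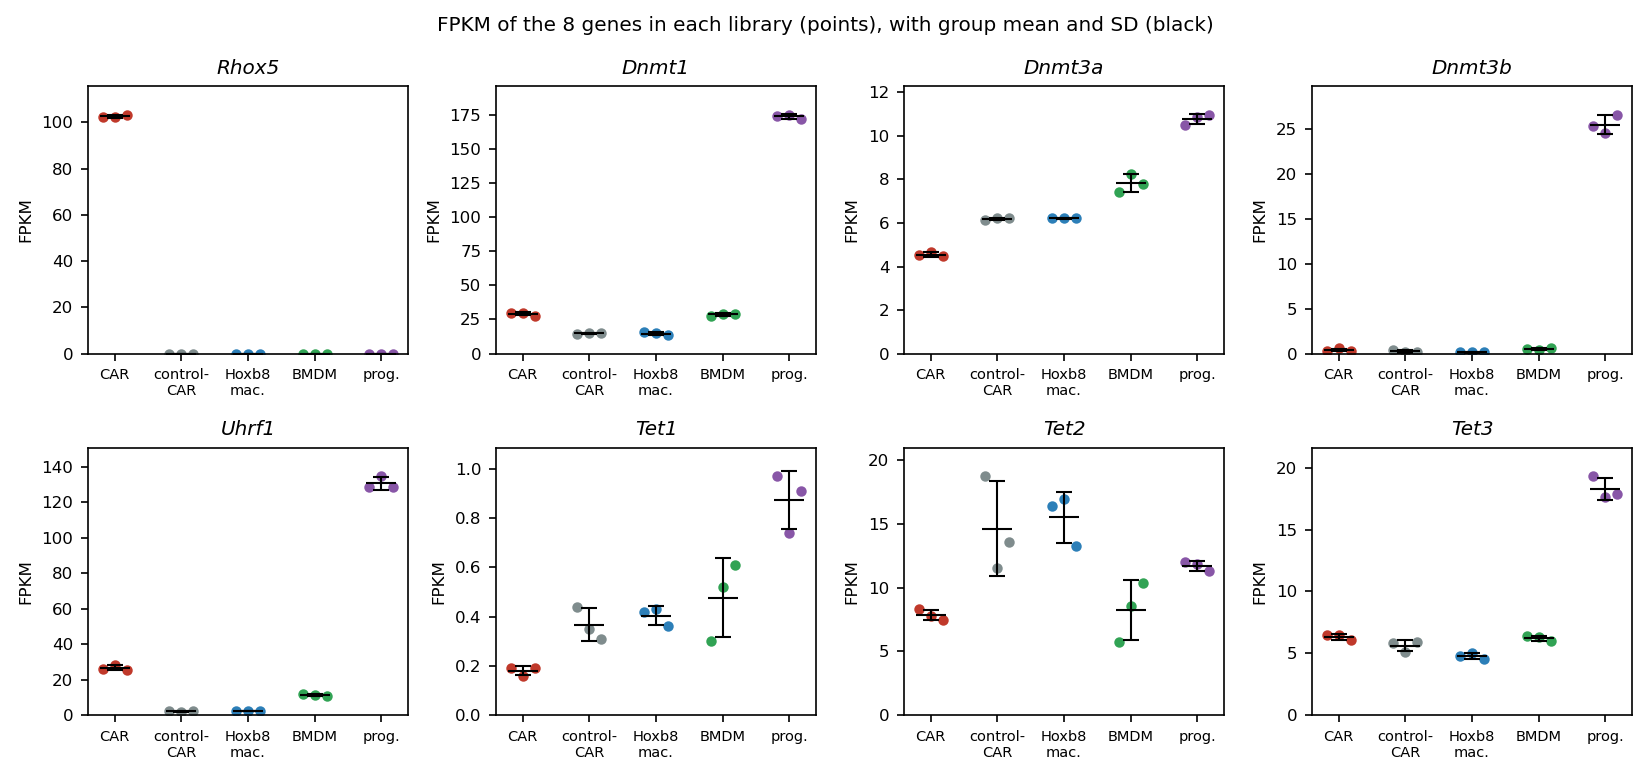
Level of each of the 8 genes in FPKM (vertical axes, linear, each from 0) in the 15 libraries. Points are libraries, and bars and whiskers are the mean and SD of 3 per group; Rhox5 is seen only in the CAR macrophages, and Dnmt1, Dnmt3b, Uhrf1 and Tet3 are highest in the progenitor cells.

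Rhox5 ranked 929th of 17030 genes by mean FPKM within the CAR macrophages. A count of 0 in all 12 other libraries together with a count above 0 in all 3 CAR libraries was seen in 231 genes, of which 55 averaged at least 1 FPKM in CAR macrophages. Rhox5 had the highest level of these genes. The next in order were Gm4737 at 53.2 ± 2.16 FPKM, Gpx8 at 22.4 ± 2.80 FPKM and Twist2 at 12.6 ± 1.57 FPKM (SD, n = 3). Gpx8 belongs to the glutathione peroxidase family and Twist2 is a mesenchymal transcription factor. These 3 names were picked after their values had been seen.

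The genes with the pattern most like that of Rhox5 were found by the root mean square difference of log2(FPKM + 1) over the 15 libraries, among 8101 genes with 10 FPKM or more in at least 3 libraries. The nearest was Cma1, a mast cell chymase, with a difference of 0.13 and a level of 90.2 ± 3.34 FPKM in CAR macrophages. Fbln2, which encodes the matrix protein fibulin 2, followed at 0.20 and 76.0 ± 0.667 FPKM. Rpl39l, a ribosomal protein gene best known from testis, stood at 0.34, Prl2c2, a proliferin, at 0.35, and Pcolce, which enhances procollagen cleavage, at 0.37. Their levels in CAR macrophages were 66.6 ± 0.848, 61.4 ± 1.51 and 59.5 ± 2.92 FPKM, and none of the 5 averaged above 0.21 FPKM in another group. Rpl39l and Prl2c2 have near-identical copies elsewhere in the genome, so their counts are uncertain.

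Of 31 other Rhox genes looked up, 1 had a row used here, so the rest of the cluster was not analysed here. The gene with a row was Rhox8, at 0.06 FPKM in CAR macrophages and 0.023 FPKM in control-CAR macrophages. Within 500 kb of Rhox5, a window chosen after the values were seen, 4 of 56 annotated genes had a row. Besides Rhox5 and Rhox8 these were Tmem255a, at no more than 0.013 FPKM in any group mean, and Zbtb33. Zbtb33 encodes Kaiso, a reader of methylated DNA, and stood at 5.70 ± 0.230 FPKM in CAR macrophages and 4.797 ± 0.745 FPKM in control-CAR macrophages (log2 change -0.05, SE 0.11). Log2 changes come from edgeR with TMM factors, which were about 1.05 in CAR libraries, 0.825 to 0.877 in control-CAR libraries, 0.824 to 0.829 in Hoxb8 macrophages, 0.897 to 0.961 in BMDM and 1.46 to 1.47 in progenitor cells, so they can differ from the ratio of FPKM values.

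Genes of the germ line that are known to be kept silent by promoter methylation in somatic cells were listed for comparison. Of 18 such genes 9 had a row, and their summed level was 1.39 to 1.48 FPKM in the CAR libraries against 0.73 to 1.25 FPKM in the control-CAR libraries. The sum was 0.98 to 1.03 FPKM in Hoxb8 macrophages. It was above the CAR libraries in BMDM, at 1.56 to 1.94 FPKM, and in progenitor cells, at 5.53 to 6 FPKM, both without Rhox5 counts. Most of the CAR sum was Zcwpw1, at 1.04 FPKM in CAR macrophages, 0.773 FPKM in control-CAR macrophages and 1.53 FPKM in BMDM. The only gene of this list above 2 FPKM in any group was Ddx4, a germ cell RNA helicase. Ddx4 stood at 0.13 FPKM or less in the macrophage groups and 4.40 ± 0.251 FPKM in the progenitor cells. Among Ets family factors, Ets1 stood at 8.92 ± 0.268 FPKM in CAR macrophages and 18.8 ± 0.371 FPKM in control-CAR macrophages (log2 change -1.38, SE 0.06). The other factor genes named by the same rule were nearer to each other in these groups: Elk1 had a log2 change of -0.55, Ets2 of 0.40, and Elf1 of -0.29, although its mean FPKM was 27.6 in CAR and 26.5 in control-CAR macrophages.

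Markers of other cell types differed between the groups that differed in Rhox5. The summed level of 8 macrophage markers was 5582 to 5739 FPKM in the CAR libraries, against 12020 to 12849 FPKM in the control-CAR libraries, 12466 to 13738 FPKM in Hoxb8 macrophages and BMDM together, and 207 to 228 FPKM in progenitor cells. Lyz2 made up most of the difference between CAR and control-CAR macrophages, at 612 ± 6.11 and 5027 ± 172 FPKM. Cd68 was close, at 738 ± 25.7 and 758 ± 130 FPKM. Mertk was low in both but higher in CAR macrophages, at 0.423 and 0.09 FPKM. By edgeR 1 of the 8 was higher and 7 were lower in CAR macrophages, beside 41.9% and 36.8% of all genes tested. Mast cell markers, with 9 of 10 in the table, summed to 3648 to 3872 FPKM in CAR libraries and 421 to 472 FPKM in control-CAR libraries. They summed to 419 to 430 FPKM in Hoxb8 macrophages, 302 to 321 FPKM in BMDM and 1630 to 1750 FPKM in progenitor cells. Most of the progenitor sum was Cpa3, at 1284 ± 56.6 FPKM. Cma1, Fcer1a, Tpsb2 and Mcpt4 had no count in progenitor cells, like Rhox5, and stood at 90.2, 97.3, 329 and 0.81 FPKM in CAR macrophages. All 8 mast cell markers tested were higher in CAR than in control-CAR macrophages, beside 41.9% of all 11793 genes tested. Cma1 passed the filter for testing, at least 1 FPKM in at least 3 libraries, through the CAR libraries alone, so its direction was fixed by the filter. Rhox5 was chosen by this same comparison, and the count is a description. Progenitor markers, all 8 in the table, summed to 160.6 to 174.6 FPKM in CAR libraries, 13.4 to 15.5 FPKM in control-CAR libraries, 155 to 274 FPKM in BMDM and 2871 to 2926 FPKM in progenitor cells. The neutrophil protease gene Ctsg made up most of the CAR sum, at 113 ± 4.62 FPKM against 2.79 ± 0.665 FPKM in control-CAR macrophages, followed by Cd34 at 40.8 ± 2.65 FPKM against 1.92 ± 0.157 FPKM.

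Fibroblast markers, all 9 in the table, summed to 52.6 to 53.8 FPKM in CAR libraries, 17.4 to 20.6 FPKM in control-CAR libraries and 59.6 to 85.2 FPKM in BMDM, but different genes made up these sums. The collagen gene Col1a2 stood at 23.9 ± 0.700 FPKM in CAR macrophages, 0.01 FPKM in control-CAR macrophages and 1.25 ± 0.223 FPKM in BMDM. The matrix gene Sparc stood at 16.4 ± 0.447 FPKM in CAR macrophages, at 0 in control-CAR macrophages and at 1.58 ± 0.332 FPKM in BMDM. Pdgfrb and Thy1 went the other way. Pdgfrb stood at 5.81 ± 0.199 FPKM in CAR macrophages and 16.9 ± 1.51 FPKM in control-CAR macrophages, where it made up most of the sum. Thy1 stood at 0.617 ± 0.110 FPKM in CAR and 1.33 ± 0.250 FPKM in control-CAR macrophages. In BMDM it was at 50.2 ± 13.2 FPKM and made up most of the sum. Of 7 fibroblast markers tested, 4 were higher and 2 lower in CAR than in control-CAR macrophages, beside 41.9% and 36.8% of all genes tested. Epithelial markers, with 12 of 13 in the table, summed to 10.6 to 11.3 FPKM in CAR libraries, 1.60 to 2.76 FPKM in control-CAR libraries and 21.1 to 26.0 FPKM in BMDM. The keratin genes Krt20 and Krt18 stood at 5.46 ± 0.0458 and 2.25 ± 0.0458 FPKM in CAR macrophages and at 0 in control-CAR macrophages, while Epcam stood at 0.02 FPKM in CAR macrophages. Most of the BMDM sum was Cdh1, at 20.7 ± 2.49 FPKM. Markers of gonad, embryo and placenta, with 7 of 12 in the table, summed to 7.51 to 8.46 FPKM in CAR libraries and 0.04 to 0.30 FPKM in control-CAR libraries. Of these Sox9, a Sertoli cell and cartilage factor, stood at 4.99 ± 0.1002 FPKM in CAR macrophages and at 0 in all other libraries. The part of these cell type markers in the Rhox5 result was not tested.

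Dnmt1, the maintenance enzyme (gene ID 13433; chromosome 9, 20907206 to 20959888), was by far highest in progenitor cells. Its level was 29.40, 29.94 and 27.80 FPKM in CAR macrophages, 14.65, 15.02 and 15.40 FPKM in control-CAR macrophages, and 15.44, 14.91 and 13.59 FPKM in Hoxb8 macrophages. BMDM had 27.65, 29.17 and 28.99 FPKM and progenitor cells 174.31, 175.08 and 172.06 FPKM. The progenitor libraries lay above all others, CAR macrophages overlapped BMDM, and control-CAR macrophages overlapped Hoxb8 macrophages. Dnmt1 fell in Hoxb8 macrophages relative to progenitor cells (log2 change -2.74, SE 0.06) and in BMDM relative to progenitor cells (-1.94, SE 0.06). It was also lower in Hoxb8 macrophages than in BMDM (-0.80, SE 0.06). The p-values from edgeR's quasi-likelihood fit, adjusted over all 11793 genes tested by the Benjamini-Hochberg method, were 2.7e-18, 2.3e-16 and 6.6e-10. Compared with CAR macrophages, without a test, the log2 change was 0.64 (SE 0.06) against control-CAR macrophages and -2.09 against progenitor cells. Against BMDM it was -0.16, which turned to 0.02 with library totals in place of TMM.

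Uhrf1, which guides Dnmt1 to replicated DNA (gene ID 18140; chromosome 17, 56303337 to 56323486), was highest in progenitor cells as well, with wider steps between the groups. Its level was 26.15, 28.25 and 25.60 FPKM in CAR macrophages, against 2.12, 1.90 and 2.08 FPKM in control-CAR macrophages and 2.37, 2.43 and 2.32 FPKM in Hoxb8 macrophages. BMDM had 11.76, 11.46 and 10.84 FPKM and progenitor cells 128.70, 134.69 and 128.40 FPKM. No pair of groups overlapped, although control-CAR and Hoxb8 macrophages were close. Uhrf1 fell in Hoxb8 macrophages relative to progenitor cells with a log2 change of -4.99 (SE 0.07; edgeR adjusted p = 1.1e-20) and in BMDM relative to progenitor cells with -2.87 (SE 0.06; adjusted p = 1.6e-18). In Hoxb8 macrophages it was also below BMDM, with a log2 change of -2.11 (SE 0.08; adjusted p = 2.6e-14). The untested log2 change in CAR macrophages was 3.43 (SE 0.07) against control-CAR macrophages, 1.05 against BMDM and -1.82 against progenitor cells.

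The balance between both maintenance genes differed by group. Uhrf1 reached 0.918 ± 0.0272 of the FPKM of Dnmt1 in CAR macrophages, 0.135 ± 0.00911 in control-CAR macrophages, 0.162 ± 0.00862 in Hoxb8 macrophages, 0.397 ± 0.0260 in BMDM and 0.751 ± 0.0161 in progenitor cells (SD, n = 3 each). Genes of DNA replication, which rise in S phase when maintenance methylation takes place, were highest in progenitor cells too. The summed level of 20 such genes was 699 to 711 FPKM in CAR libraries, 180 to 196 FPKM in control-CAR libraries, 183 to 222 FPKM in Hoxb8 macrophages, 345 to 361 FPKM in BMDM and 2505 to 2523 FPKM in progenitor cells. All 20 fell in Hoxb8 macrophages relative to progenitor cells and all 20 in BMDM relative to progenitor cells, beside 39.6% and 40.7% of all genes tested. Between CAR macrophages and BMDM, the sum differed while Dnmt1 overlapped, at 29.0 ± 1.11 FPKM in CAR macrophages and 28.6 ± 0.831 FPKM in BMDM. Uhrf1 differed there in the same direction as the sum, with means of 26.7 FPKM in CAR macrophages and 11.4 FPKM in BMDM. The part of the replication genes in the differences of Dnmt1 and Uhrf1 was not tested.

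**Figure D3:**
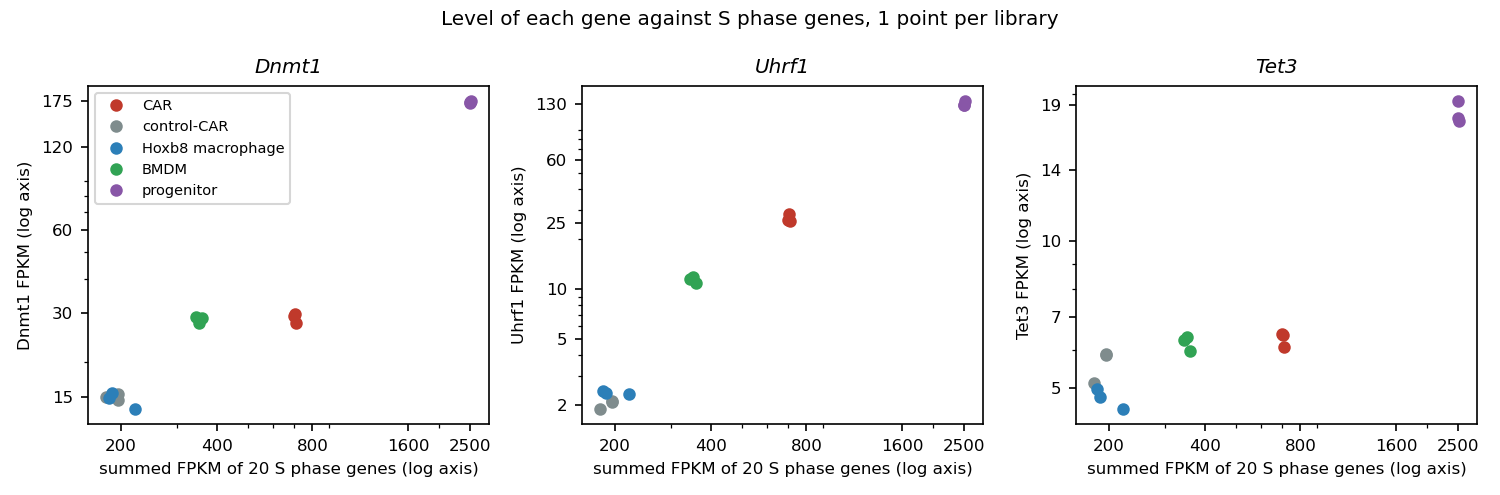
FPKM of Dnmt1, Uhrf1 and Tet3 (vertical, log scale) against the summed FPKM of 20 S phase genes (horizontal, log scale), 1 point per library. The groups keep to separate bands on the horizontal axis except control-CAR and Hoxb8 macrophages, which overlap between 183 and 196 FPKM.

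Among the enzymes that place new marks, Dnmt3b was a gene of the progenitor cells (gene ID 13436; chromosome 2, 153649411 to 153687730). CAR macrophages had 0.31, 0.58 and 0.31 FPKM, control-CAR macrophages 0.38, 0.13 and 0.20 FPKM, Hoxb8 macrophages 0.20, 0.12 and 0.13 FPKM, and BMDM 0.54, 0.43 and 0.59 FPKM. Progenitor cells had 25.29, 24.50 and 26.56 FPKM. The macrophage levels rest on 20 to 40 counts per CAR library, 10 to 22 per control-CAR library, 8 to 12 per Hoxb8 macrophage library and 29 to 39 per BMDM library, against 1488 to 1546 per progenitor library. All progenitor libraries lay above the macrophages, and macrophage groups next to each other in level overlapped. Dnmt3b was below progenitor cells in Hoxb8 macrophages (log2 change -6.45, SE 0.19) and in BMDM (-4.86, SE 0.15). It passed the filter for testing through the progenitor libraries alone, so it could only come out lower in the other groups. Both changes are therefore a description with no test. Dnmt3b was lower in Hoxb8 macrophages than in BMDM (-1.59, SE 0.32; edgeR adjusted p = 0.000224). In CAR against control-CAR macrophages its log2 change was 0.55 (SE 0.31), and it ranged from 0.169 to 1 when single libraries were left out.

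Dnmt3a, the other enzyme of this kind (gene ID 13435; chromosome 12, 3801559 to 3914443), had the narrowest range of the methyltransferases. It stood at 4.51, 4.68 and 4.46 FPKM in CAR macrophages, 6.13, 6.21 and 6.22 FPKM in control-CAR macrophages, and 6.21, 6.23 and 6.21 FPKM in Hoxb8 macrophages. BMDM had 7.44, 8.25 and 7.78 FPKM and progenitor cells 10.50, 10.85 and 10.98 FPKM. CAR macrophages were below all other groups, and control-CAR overlapped Hoxb8 macrophages. The direction against progenitor cells depended on the scaling: with TMM the log2 change was 0.05 (SE 0.05; edgeR adjusted p = 0.340) in Hoxb8 macrophages and 0.20 (SE 0.05; adjusted p = 0.00110) in BMDM, and with library totals -0.78 and -0.46. In Hoxb8 macrophages Dnmt3a was lower than in BMDM by TMM (log2 change -0.15, SE 0.05; adjusted p = 0.0157), a call lost without replicate 2 of BMDM (-0.107, adjusted p = 0.0899). In CAR against control-CAR macrophages the log2 change was -0.75 (SE 0.05), and -0.436 with library totals.

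The shares of the 3 methyltransferases shifted accordingly. Dnmt1 reached 6.38 ± 0.143 times the FPKM of Dnmt3a in CAR macrophages, 2.43 ± 0.0438 in control-CAR macrophages, 2.36 ± 0.152 in Hoxb8 macrophages, 3.66 ± 0.107 in BMDM and 16.1 ± 0.465 in progenitor cells. Dnmt3b reached at most 0.124 of the FPKM of Dnmt3a in any macrophage library, against 2.36 ± 0.0900 times in progenitor cells.

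The cofactor gene Dnmt3l, which is not among the 8, ran in the opposite direction to Dnmt3b. It averaged 6.81 ± 0.236 FPKM in CAR macrophages, 17.6 ± 0.557 in control-CAR macrophages, 18.8 ± 2.26 in Hoxb8 macrophages, 7.19 ± 0.309 in BMDM and 0.460 ± 0.147 FPKM in progenitor cells (SD, n = 3 each). Dnmt3l rose in Hoxb8 macrophages (log2 change 5.94, SE 0.17; edgeR adjusted p = 1.2e-16) and in BMDM (4.53, SE 0.19; adjusted p = 4.6e-14) relative to progenitor cells. It was higher in Hoxb8 macrophages than in BMDM (1.41, SE 0.11; adjusted p = 1.5e-09). Its log2 change in CAR against control-CAR macrophages, given as a description, was -1.50 (SE 0.11).

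Of the erasers, Tet2 was the most abundant in the 4 macrophage groups by mean FPKM, a scale per length (gene ID 214133; chromosome 3, 133463677 to 133545136). It stood at 8.30, 7.76 and 7.47 FPKM in CAR macrophages, 18.74, 11.57 and 13.56 FPKM in control-CAR macrophages, and 16.41, 16.94 and 13.23 FPKM in Hoxb8 macrophages. BMDM had 5.72, 8.58 and 10.38 FPKM and progenitor cells 12.04, 11.82 and 11.27 FPKM. The spread within control-CAR macrophages and BMDM was wide, and CAR macrophages lay within the range of BMDM and below control-CAR macrophages. Tet2 was higher in Hoxb8 macrophages than in BMDM (log2 change 1.09, SE 0.15; edgeR adjusted p = 5.0e-06). It was also higher than in progenitor cells with TMM (1.23, SE 0.15; adjusted p = 4.5e-07), a call lost with limma on log2(FPKM + 1) (0.372, adjusted p = 0.0586). BMDM against progenitor cells gave 0.15 (SE 0.15; adjusted p = 0.373), with adjusted p = 0.0241 at a log2 change of 0.332 without replicate 1 of BMDM and a change of -0.507 with library totals. In CAR against control-CAR macrophages the untested log2 change was -1.19 (SE 0.15).

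Tet3 (gene ID 194388; chromosome 6, 83362373 to 83457208) was highest in progenitor cells, like Dnmt1, Uhrf1 and Dnmt3b. It stood at 6.46, 6.44 and 6.06 FPKM in CAR macrophages, 5.85, 5.13 and 5.88 FPKM in control-CAR macrophages, and 4.79, 4.98 and 4.54 FPKM in Hoxb8 macrophages. BMDM had 6.36, 6.29 and 5.96 FPKM and progenitor cells 19.33, 17.62 and 17.90 FPKM. The 4 macrophage groups lay within a narrow band and CAR macrophages overlapped BMDM. Tet3 fell in Hoxb8 macrophages (log2 change -1.12, SE 0.06; edgeR adjusted p = 4.1e-12) and in BMDM (-0.92, SE 0.06; adjusted p = 5.9e-11) relative to progenitor cells. Between Hoxb8 macrophages and BMDM the log2 change was -0.19 (SE 0.06; adjusted p = 0.0119), a call lost without replicate 1 of BMDM (-0.145, adjusted p = 0.0598) and without replicate 3 of Hoxb8 macrophages (-0.164, adjusted p = 0.0522). In CAR against control-CAR macrophages it was -0.16 with TMM and 0.15 with library totals.

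Tet1 (gene ID 52463; chromosome 10, 62804570 to 62887469) was low everywhere and was not tested, since no library reached 1 FPKM. It had 0.19, 0.16 and 0.19 FPKM in CAR macrophages from 42 to 48 counts, against 0.44, 0.35 and 0.31 FPKM in control-CAR macrophages from 80 to 105 counts. Hoxb8 macrophages had 0.42, 0.43 and 0.36 FPKM, BMDM 0.30, 0.52 and 0.61 FPKM, and progenitor cells 0.97, 0.74 and 0.91 FPKM. By FPKM the CAR libraries were thus the lowest and the progenitor libraries the highest of the 15. With counts scaled by library size and TMM, the CAR libraries stayed lowest. The progenitor libraries, at 9.00, 7.01 and 8.20 on that scale, then overlapped the other macrophage groups. The highest library stood at 8.89 in BMDM, 7.39 in Hoxb8 macrophages and 7.07 in control-CAR macrophages. Tet2 reached 1.24 ± 0.0405 times the FPKM of Tet3 in CAR macrophages, 2.59 ± 0.533 in control-CAR macrophages, 3.25 ± 0.289 in Hoxb8 macrophages, 1.34 ± 0.422 in BMDM and 0.641 ± 0.0260 in progenitor cells.

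**Figure D4:**
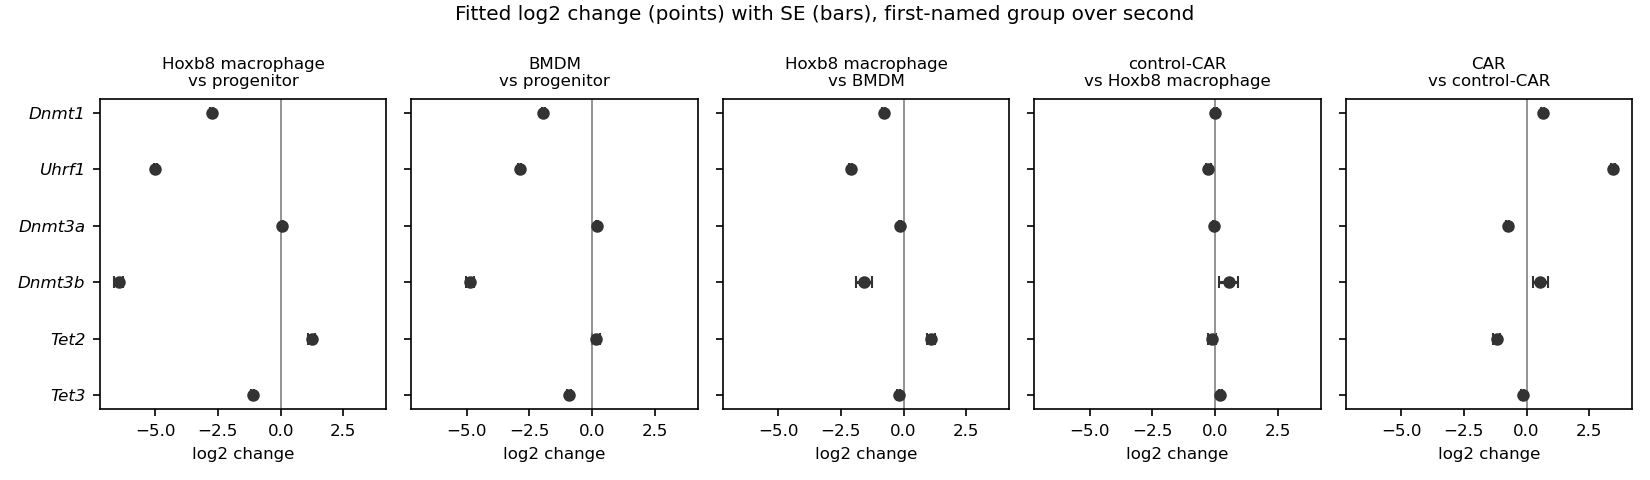
Log2 change of the 6 tested enzyme genes (horizontal axis, first-named group over the second, TMM scaling; whiskers are the SE of the edgeR fit) in 5 comparisons. Dnmt1, Dnmt3b, Uhrf1 and Tet3 lie below 0 in both comparisons with progenitor cells, and all 6 genes lie near 0 in control-CAR against Hoxb8 macrophages except Dnmt3b, at 0.54 with a wide error.

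Of the 8 genes, 7 passed the filter of at least 1 FPKM in at least 3 libraries, Rhox5 through the CAR libraries alone and Dnmt3b through the progenitor libraries alone. Among the 6 enzyme genes tested, 1 rose and 4 fell in Hoxb8 macrophages relative to progenitor cells, where 44.7% of all genes tested rose and 39.6% fell (84.3% in either direction). In BMDM relative to progenitor cells 1 rose and 4 fell, where 46.6% of all genes rose and 40.7% fell (87.3%). Dnmt3b is among the 4 that fell in both comparisons, and its direction there was fixed by the filter. In Hoxb8 macrophages relative to BMDM 1 was higher and 5 were lower, where 32.0% of all genes were higher and 38.3% lower (70.3%). The shares called against progenitor cells were near their backgrounds, and 6 genes are too few to set the third share apart from its own. Control-CAR against Hoxb8 macrophages gave 0 of 6 enzyme genes past the threshold by edgeR, beside 2.62% of all genes, with 2 at an unadjusted p under 0.05, 0 by DESeq2 and 0 by limma. The 2 were Tet3 (log2 change 0.20, adjusted p = 0.105) and Uhrf1 (-0.26, adjusted p = 0.145). The comparisons share libraries and are not independent of each other. The median log2 change of all genes with TMM was 0.06 in Hoxb8 macrophages against progenitor cells and 0.10 in BMDM against progenitor cells, and with library totals -0.69 and -0.54. The falls of Dnmt1, Uhrf1, Dnmt3b and Tet3 exceeded that shift.

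Genes that work with these enzymes were taken from 3 lists: partners of the methyltransferases (15 tested of 16), readers of methylated DNA (10 of 10) and partners of the erasers (14 of 17). In Hoxb8 macrophages relative to progenitor cells 13 of the 39 rose and 24 fell, with TMM, while 7 rose and 30 fell with library totals. The methyltransferase partners accounted for 2 that rose and 12 that fell, with a median log2 change of -0.68 beside 0.06 over all genes. With library totals 2 of them rose and 13 fell. The readers had 5 that rose and 4 that fell (median 0.20), but 1 and 8 with library totals. The eraser partners had 6 that rose and 8 that fell (median -0.50), or 4 and 9 with library totals. Over all 11793 genes tested 44.7% rose and 39.6% fell with TMM, and with library totals 3123 genes rose and 7195 fell. In BMDM relative to progenitor cells 12 rose and 23 fell, or 8 and 29 with library totals. Beside these, 46.6% and 40.7% of all genes rose and fell with TMM, and 3762 and 6959 genes with library totals. In Hoxb8 macrophages relative to BMDM 12 were higher and 15 lower, or 9 and 22 with library totals. Over all genes 32.0% were higher and 38.3% lower with TMM, and 2628 and 5865 genes with library totals. Control-CAR against Hoxb8 macrophages gave 0 of 39 by edgeR, beside 2.62% of all genes tested, with 7 at an unadjusted p under 0.05. DESeq2 gave 0 and limma on log2(FPKM + 1) gave 1.

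Of the methyltransferase partners named by the rule, Cdca7 and Hells, which together form a nucleosome remodeller needed for DNA methylation, averaged 9.64 ± 0.566 and 10.1 ± 0.0833 FPKM in CAR macrophages, against 0.583 ± 0.101 and 1.43 ± 0.431 FPKM in control-CAR macrophages. In Hoxb8 macrophages relative to progenitor cells Cdca7 fell by 6.78 on the log2 scale (edgeR adjusted p = 1.4e-20) and Hells by 4.30 (adjusted p = 3.2e-15). Zfp57, a zinc finger protein that protects methylation of imprinted regions, averaged 3.72 ± 0.457 FPKM in CAR macrophages, 0.110 ± 0.0300 FPKM in control-CAR macrophages and 2.64 ± 0.279 FPKM in progenitor cells. Uhrf2, the paralog of Uhrf1, was picked after its values were seen. It averaged 13.5 ± 0.210 FPKM in CAR macrophages, 9.14 ± 1.68 in control-CAR macrophages, 8.44 ± 0.286 in Hoxb8 macrophages, 19.99 ± 1.26 in BMDM and 5.87 ± 0.161 FPKM in progenitor cells. Unlike Uhrf1, Uhrf2 rose in Hoxb8 macrophages (log2 change 1.37, SE 0.09; edgeR adjusted p = 3.1e-11) and in BMDM (2.45, SE 0.08; adjusted p = 2.1e-15) relative to progenitor cells.

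Among the readers, Mbd3, a subunit of the NuRD complex, averaged 50.3 ± 0.915 FPKM in CAR macrophages and 24.3 ± 0.501 FPKM in control-CAR macrophages (log2 change 0.75, SE 0.07). Zbtb4, a zinc finger protein that binds methylated CpG, rose in Hoxb8 macrophages relative to progenitor cells (log2 change 4.58, SE 0.14; edgeR adjusted p = 5.5e-16) and in BMDM (5.65, SE 0.13; adjusted p = 1.0e-17). Its levels were 2.71 ± 0.312 FPKM in CAR macrophages, 3.28 ± 0.231 in control-CAR macrophages, 3.53 ± 0.354 in Hoxb8 macrophages, 8.64 ± 0.398 in BMDM and 0.253 ± 0.0577 FPKM in progenitor cells. The other readers named by the rule, Mbd4 and Mbd5, had log2 changes of -0.58 and -0.49 in CAR against control-CAR macrophages, given as a description.

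Among the eraser partners, Apex1, an endonuclease of base excision repair, averaged 41.0 ± 0.641 FPKM in CAR macrophages and 10.3 ± 0.750 FPKM in control-CAR macrophages, and 180 ± 5.63 FPKM in progenitor cells. Apex1 fell in Hoxb8 macrophages relative to progenitor cells (log2 change -3.52, SE 0.10; edgeR adjusted p = 2.4e-16). Gadd45g, a stress-induced gene linked to demethylation, rose in the same comparison (6.09, SE 0.28; adjusted p = 2.3e-13). It averaged 22.1 ± 0.581 FPKM in CAR macrophages, 6.62 ± 0.996 in control-CAR macrophages, 7.01 ± 0.9996 in Hoxb8 macrophages and 0.173 ± 0.117 FPKM in progenitor cells. The glycosylase gene Neil1 and Idh1, which makes the 2-oxoglutarate that Tet enzymes consume, were lower in CAR than in control-CAR macrophages. Their log2 changes, given as a description, were -1.62 and -1.25. In that comparison 16 of the 39 genes were higher and 16 lower with TMM, beside 41.9% and 36.8% of all genes tested (78.7%). With library totals 22 were higher and 8 lower, beside 6722 and 2770 of all 11793 genes tested.

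**Figure D5:**
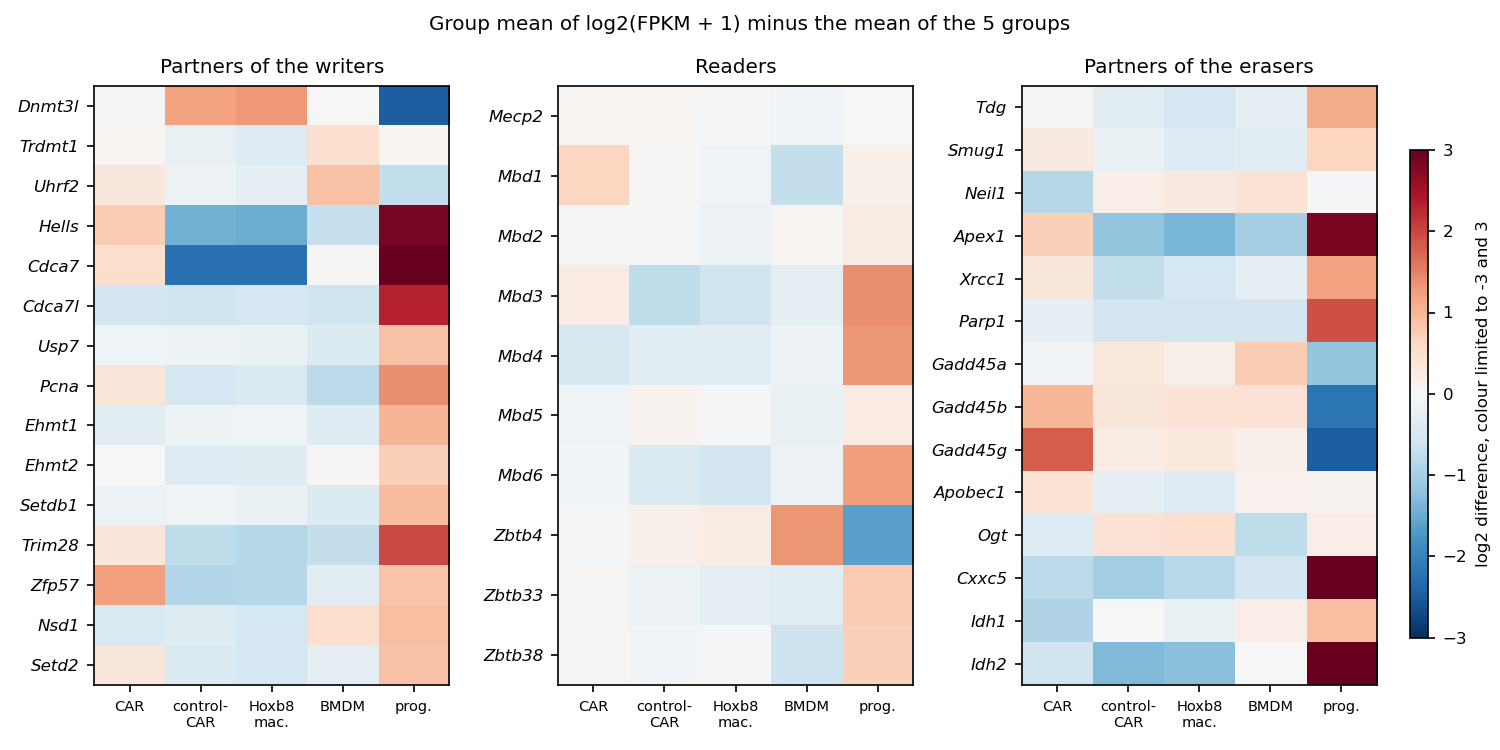
Heat map of the 39 tested partner genes (rows, by list) in the 5 groups (columns); colour is the group mean of log2(FPKM + 1) minus the mean of the 5 groups, limited to -3 and 3. Cdca7 and Hells are high in progenitor cells and intermediate in CAR macrophages, while Dnmt3l is high in control-CAR and Hoxb8 macrophages and lowest in progenitor cells.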

How the data were processed

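Bulk RNA was sequenced from 15 mouse bone marrow cell libraries, 3 in each of 5 groups. The authors deposited 1 gene table with estimated counts from RSEM (version 1.3.1), FPKM and TPM for each library. The submitters' processing notes name HISAT2, Bowtie2, RSEM, DESeq2 1.4.5 and build GRCm38.p6, without their roles; no source used here gives the annotation or strand setting. Their 15 average columns were not used. Estimated counts summed to 16962839 to 19221681 per library, and 94.5% to 96.2% of a library's values were whole; they were rounded before testing. Column names matched all 15 libraries. In all, 25 symbols turned into dates were restored, and 16978 of 17030 gene IDs matched RefSeq.

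Genes with at least 1 FPKM in at least 3 of the 15 libraries (11793) were tested with edgeR 4.0.16 (R 4.3.3): TMM factors, 1 mean per group over all 15 libraries, the quasi-likelihood F test, and Benjamini-Hochberg adjustment over all tested genes with a threshold of 0.05. The SE is the size of the log2 change divided by the square root of F. Fitted changes of genes at 0 in a group depend on a prior count and are not printed; a bound from 3 counts per library is given for Rhox5. FPKM is scaled by length and is used for levels. Alternatives were DESeq2 1.42.0, limma 3.58.1 on log2(FPKM + 1), log2(FPKM + 0.1) and log2(TPM + 1), other scalings and filters, single libraries left out and a replicate block. The fit was tested on simulated data.

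The members and lists were chosen with earlier results of these data known. All 8 members are named, with the 5 genes of the pattern nearest to Rhox5 (names of predicted genes passed over) and, from each list, up to 4 tested genes with the largest log2 change in CAR against control-CAR macrophages, plus list members standing at 0 or noted as picked later. Promoter sequences are from RefSeq, GRCm38.p6, and all 8 genes matched.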

Additional observations from a re-analysis of the deposited data

How the results depend on the processing

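Of 153 recomputed counts of called genes, 147 stayed within 1.5 times the reported count. These counts take both directions together, and where most genes are called such a total can hardly move by 1.5 times. The split by direction did move. In CAR against control-CAR macrophages 16 partner genes were higher and 16 lower with TMM, but 28 and 3 with limma on log2(TPM + 1). Over all 11793 genes tested the latter gave 8018 higher and 1933 lower. In control-CAR against Hoxb8 macrophages 1 enzyme gene was called with library totals, Tet3 (0.242, adjusted p = 0.0417), and 1 partner gene with library totals and with limma on log2(FPKM + 1), log2(TPM + 1) or log2(FPKM + 0.1); leaving out single libraries gave 0 to 1 partner gene, the 1 without replicate 3 of Hoxb8 macrophages. Signs turned as follows, in the order library totals, log2(FPKM + 1), log2(TPM + 1) and log2(FPKM + 0.1): Dnmt3a in Hoxb8 macrophages against progenitor cells -0.777, -0.706, -1 and -0.784, with -0.163 under upper quartile factors, and in BMDM against progenitor cells -0.462, -0.417, -0.546 and -0.458. Tet2 in BMDM against progenitor cells gave -0.507, -0.495, -0.628 and -0.545. Against BMDM, CAR macrophages gave 0.0218, 0.0212, 0.0968 and 0.0218 for Dnmt1, 0.0304, 0.0231, 0.0937 and 0.0264 for Tet3, and 0.0435 for Tet2 under log2(TPM + 1) alone. Tet3 in CAR against control-CAR macrophages gave 0.15, 0.147, 0.366 and 0.169. Sign changes of values that stayed uncalled are not listed. The cause was not tested. Other lost calls were Dnmt3a in BMDM against progenitor cells (upper quartile, adjusted p = 0.623; no filter, 0.0574), Dnmt3a in Hoxb8 macrophages against BMDM (no filter, 0.0818; these groups alone, 0.0869) and Tet2 in Hoxb8 macrophages against progenitor cells (log2(TPM + 1), 0.625; log2(FPKM + 0.1), 0.0674). Of 21 correlations between the deviations of same-numbered replicates, 0 passed 0.1. Between differently numbered libraries of Hoxb8 macrophages and BMDM the highest were 0.118, 0.176 and 0.183. With a replicate block the counts were 5, 6, 5 and 0 enzyme genes in Hoxb8 macrophages against progenitor cells, Hoxb8 macrophages against BMDM, BMDM against progenitor cells and control-CAR against Hoxb8 macrophages, the counts reported, and 37, 26, 35 and 0 partner genes, with 32 in CAR against control-CAR macrophages. Depth limits Tet1 everywhere and Dnmt3b outside progenitor cells, where a library held at most 40 counts.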

Other observations

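Imprinted genes are another class under the control of DNA methylation. Of 22 listed, 17 had a row and 5 were tested. Peg10, a retrotransposon-derived gene expressed from the paternal copy, averaged 2.82 ± 0.117 FPKM in CAR macrophages, 5.58 ± 0.254 FPKM in BMDM, and was at 0 in the control-CAR, Hoxb8 macrophage and progenitor libraries. Its neighbour Sgce had the same pattern, at 1.05 ± 0.411 FPKM in CAR macrophages and 4.12 ± 0.404 FPKM in BMDM. Unlike Rhox5, both thus had counts in BMDM. Igf2r, the maternally expressed receptor that clears Igf2, averaged 9.58 ± 0.441 FPKM in CAR macrophages, 1.19 ± 0.0819 FPKM in control-CAR macrophages, 1.403 ± 0.116 FPKM in Hoxb8 macrophages and 26.3 ± 3.37 FPKM in BMDM, and was at 0 in progenitor cells. Phlda2 averaged 1.21 ± 0.0814 FPKM in CAR macrophages and no more than 0.08 FPKM in the other groups. Gnas averaged 416 ± 11.004 FPKM in CAR macrophages and 452 ± 34.3 FPKM in control-CAR macrophages (log2 change -0.41, SE 0.07).

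The supply of S-adenosylmethionine, the methyl donor of all Dnmt enzymes, was also followed. Mat2a, which makes it, averaged 57.2 ± 0.916 FPKM in CAR macrophages, 12.5 ± 3.15 FPKM in control-CAR macrophages, 10.5 ± 2.04 FPKM in Hoxb8 macrophages, 14.3 ± 2.50 FPKM in BMDM and 182 ± 9.10 FPKM in progenitor cells. Mat2a fell in Hoxb8 macrophages relative to progenitor cells (log2 change -3.29, SE 0.15; edgeR adjusted p = 1.3e-13), and so did Ahcy, which breaks down the inhibitory product of methylation (-3.29, SE 0.07; adjusted p = 1.4e-18), and the adenosine kinase gene Adk (-1.82, SE 0.09; adjusted p = 4.4e-13). Of the 10 genes of this list tested, 3 rose and 5 fell in that comparison, with a median log2 change of -0.08 beside 0.06 over all genes, of which 44.7% rose and 39.6% fell. With library totals 1 of the 10 rose and 8 fell, beside 3123 and 7195 of all 11793 genes tested. Nnmt, an enzyme that consumes S-adenosylmethionine, averaged 1.34 ± 0.211 FPKM in CAR macrophages and 0.110 ± 0.0954 FPKM in control-CAR macrophages.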
